A study of Mus musculus with 4 samples.

Results

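The set described here holds 1554 single-nucleotide variants (SNVs) of the mouse autosomes whose variant base made up 0.65 or more of the reads in each of 4 leukaemia exomes. The members were chosen by their allele fractions in these same samples, so those fractions are given as a description and carry no test. An SNV counted as confident in a sample when SpeedSeq and VarScan2, the variant callers used by the authors, both listed the same base change at the same position with 10 or more reads in all, 3 or more of them variant, and a fraction of 0.10 or more, and when its SpeedSeq quality score was at least 20. The allele fraction is the number of variant reads divided by the depth in the SpeedSeq file. Of 51317 autosomal SNVs that were confident in at least 1 sample, 9472 were confident in all 4, and the 1554 members were 16.4% of these (exact Clopper-Pearson 95% interval 15.7 to 17.2%). A further 2496 lay under 0.65 in all 4 samples, and 5422 lay at or above it in some samples and under it in others.

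The DNA came from c-Kit+ leukaemia cells in the bone marrow of moribund E2-KO mice on a C57BL/6 background. The series title explains E2-KO as the Nras-G12D allele, an activated form of a RAS signalling protein, combined with loss of Ezh2, the histone methyltransferase of a Polycomb complex, and no treatment is stated. All 4 samples form 1 group without a control, a normal tissue of the same animals or a parental strain, so a variant carried from birth and one gained by the leukaemia cannot be told apart. No source used here states the driver that deletes Ezh2 or the origin of each animal. Animals are unnumbered in the labels, so replicates 1 to 4 follow the order of listing, and nothing says that they came from separate mice. The p-values below therefore speak of how these samples scatter, and that scatter may be technical.

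An inbred mouse line should carry the same base on both chromosomes at nearly every site, and the reference genome is itself from a C57BL/6 mouse. A base that differs from the reference on both chromosomes gives an allele fraction near 1 in pure cells, one that differs on a single chromosome gives an intermediate fraction, and a sequence present in more copies than the reference assembly shows can give other fractions, because reads of several copies are placed on the same address. Chromosome segments inherited whole from another strain carry runs of SNVs that are linked to each other. Neighbouring sites are therefore not independent observations, and the intervals given for shares cover counting error only.

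Replicate 3 stood apart from the other samples. The median allele fraction of the members was 0.983, 0.972, 0.860 and 0.979 in replicates 1 to 4. The number of members at exactly 1 was 617, 587, 219 and 649 in the same order. The VarScan2 fractions had medians of 0.988, 0.974, 0.865 and 0.999, so both callers put replicate 3 lowest. SpeedSeq called the genotype homozygous for the variant at 75.4%, 71.6%, 43.2% and 74.3% of the members, and VarScan2 did so at 92.8%, 90.6%, 85.8% and 93.0%. Since SpeedSeq did not call all members homozygous in any sample, they are named here by their rule and not by a genotype. Without replicate 3 the same rule gave 3087 SNVs, 24.6% of the 12557 confident in the other 3 samples. The 1554 members made up 50.3% of these. Of the 1533 SNVs gained, 818 were not confident in replicate 3 and 715 were confident there at under 0.65. They lay mostly on chromosomes 5 (640) and 6 (420). The set then formed 39 blocks in place of 30 and reached 412 protein-coding genes in place of 190.

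**Figure D1:**
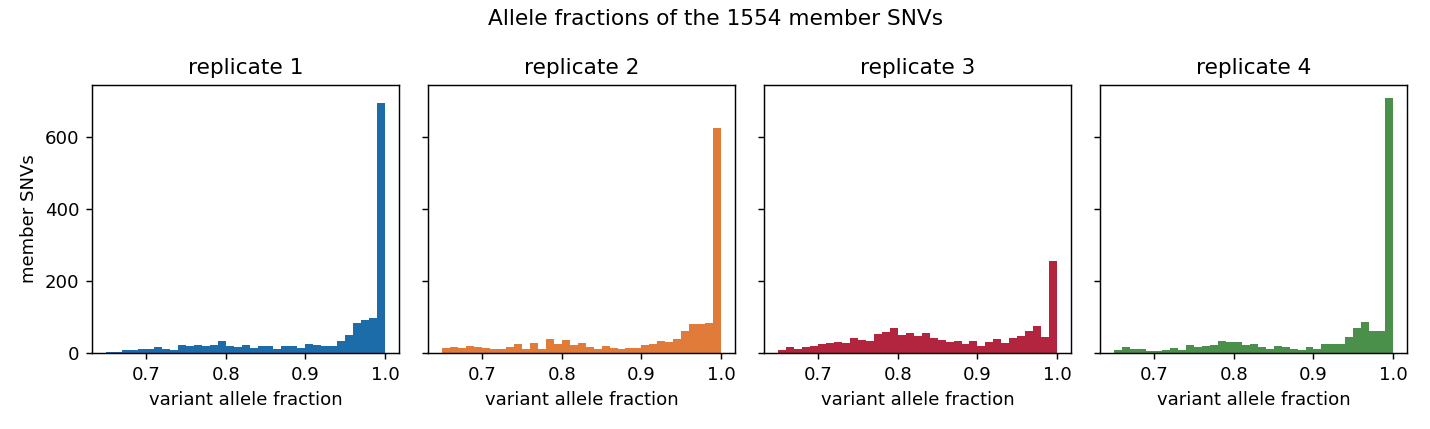
Histograms of the allele fraction (x axis, from the 0.65 minimum to 1) of the 1554 members, with the number of SNVs on the y axis and 1 panel per replicate. Replicates 1, 2 and 4 pile up at 1, whereas only 219 members reach 1 in replicate 3, which has a second mass near 0.80.

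Stretches of reference sequence from dense runs of members are printed here because they show how closely the changed bases sit in some runs. In each stretch, written 5′ to 3′ along the gene's own strand and ending at or near the base before the annotated start of the gene, capitals mark the reference bases that a member SNV replaces. The windows come from RefSeq promoter sequences of GRCm38.p6, the assembly that mm10 stands for, and the reference base of the deposited files matched the window at 19 of 19 member positions in 8 genes. The stretch before Ugt1a1, an enzyme that conjugates bilirubin, is chr1:88211883-88211958 on the plus strand. The stretch before Gm33862, a long non-coding RNA gene, is chr11:3136998-3137075 on the plus strand. The stretch before Vmn2r117, a pheromone receptor gene of the vomeronasal organ, is chr17:23479598-23479727 on the minus strand.
Ugt1a1: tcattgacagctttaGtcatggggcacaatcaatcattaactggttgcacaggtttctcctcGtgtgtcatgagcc
Gm33862: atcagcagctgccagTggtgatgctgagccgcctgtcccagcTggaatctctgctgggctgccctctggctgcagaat
Vmn2r117: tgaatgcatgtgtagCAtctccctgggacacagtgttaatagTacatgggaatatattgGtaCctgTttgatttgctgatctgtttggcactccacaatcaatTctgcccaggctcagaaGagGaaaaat

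The stretch before Vmn2r117 holds 9 changed bases in 130, and the other stretches hold 2 in 76 and 2 in 78. On the plus strand the change nearest the Ugt1a1 start is G88211945A, 14 bases before it. Its variant base was on 187 of 234, 154 of 201, 188 of 238 and 179 of 220 reads in replicates 1 to 4, fractions of 0.799, 0.766, 0.790 and 0.814. Before Gm33862 the change T3137040C was on 1232 of 1260, 780 of 810, 1173 of 1208 and 1029 of 1063 reads, fractions of 0.978, 0.963, 0.971 and 0.968. The 4 samples lay close together at both sites, one near 0.8 and the other close to 1.

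Some members sit so near each other that SpeedSeq wrote them as 1 record on the same reads. In at least 1 sample, such records gave 253 members (16.3%), compared with 13.5% of the other SNVs confident in all samples. The share was 19% of those under 0.65 in all samples and 11% of those at 0.65 or more in some only. The 3 records printed below, on the plus strand of mm10, span 8 bases each and change 3 of them, with capitals on the changed bases.
Gm40034 block reference, chr2:181931337-181931344: TctAcctG
Gm40034 block variant: CctGcctC
Sfi1 block reference, chr11:3129249-3129256: GccGtggC
Sfi1 block variant: TccAtggT
Vmn2r117 block reference, chr17:23479661-23479668: AcagGtaC
Vmn2r117 block variant: GcagAtaG

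The record in the Gm40034 block, which lies outside the Gm40034 gene itself, was on 147 of 161, 127 of 136, 87 of 95 and 124 of 128 reads in replicates 1 to 4. The record in the Sfi1 block was on 916 of 977, 628 of 665, 947 of 1001 and 805 of 858 reads, fractions of 0.938, 0.944, 0.946 and 0.938. The record upstream of Vmn2r117, whose middle change is G23479665A, was on 90 of 100, 91 of 122, 129 of 151 and 107 of 131 reads, fractions of 0.90, 0.746, 0.854 and 0.817. The variant reads of the 3 records had mean mapping qualities of 42.6 to 45.4, 38.1 to 38.6 and 49.8 to 54.2. Mapping quality is a Phred-scaled measure of how unambiguously a read was placed, and 60 was its highest value at these sites.

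Across the genome the members were uneven. Chromosome 11 held 381, chromosome 1 held 348, chromosome 6 held 193, chromosome 7 held 115 and chromosome 17 held 104. Chromosome 12 held 4, and chromosomes 3 and 8 held 11 each. Against the 16.4% over all autosomes, members were 63.4% of the 131 all-sample SNVs of chromosome 18 and 46.1% of the 755 of chromosome 1. They were 42.5% of the 87 of chromosome 13, 42.2% of the 128 of chromosome 10 and 32.3% of the 322 of chromosome 17. Chromosome 11 was close to that background with 16.8% of 2269 SNVs. Chromosome 19 held 946 SNVs confident in all samples and only 12 members (1.27%), and chromosome 2 held 1209 and 60 (4.96%).

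**Figure D2:**
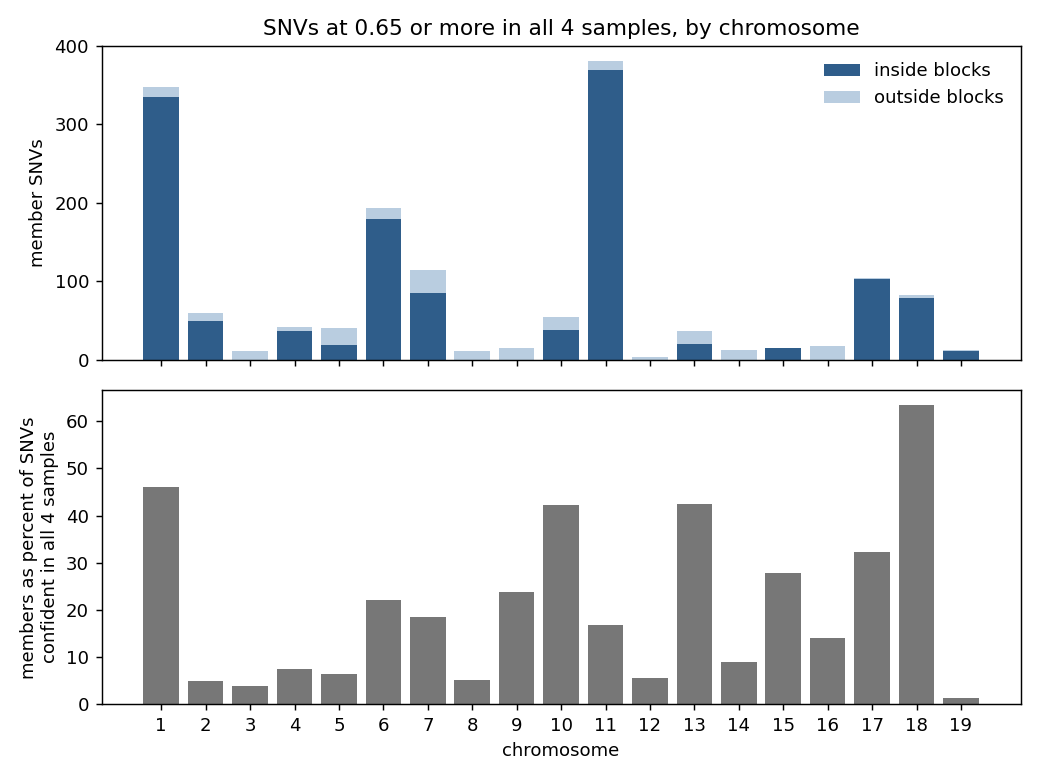
Members per autosome (upper panel, y axis in SNVs, dark for members inside blocks and light for those outside) and members as a percentage of the SNVs confident in all 4 samples (lower panel, y axis in percent). Chromosomes 11 and 1 hold the most members, and chromosome 18 has the highest percentage, 63.4% of 131 SNVs.

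Most members sat in short or long runs. A block was a run of at least 10 members with neighbours at most 1 Mb apart, and each block is named for the gene that holds most of its members or lies closest. There were 30 blocks on 13 chromosomes with 1341 members (86.3%, interval 84.5 to 88.0%). The other 213 members were outside blocks, including 42 with no other member within 1 Mb. The median distance between neighbouring members was 108 bases, and 754 neighbouring pairs were at most 100 bases apart. For the other SNVs confident in all samples the median was 140 bases, with 3582 pairs at most 100 bases apart. Those under 0.65 in all samples had a median of 71 bases, and those at 0.65 or more in some samples only had 260. Close spacing was therefore not particular to the members, and no blocks were formed from the other SNVs for comparison. The blocks covered 23.3 Mb in all. Within them lay 3569 of the 9472 SNVs confident in all samples and 867 of the 2496 SNVs under 0.65 in all samples (34.7%).

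After their values were seen, the blocks were separated into those whose median fraction in replicate 3 was more than 0.1 below that of each other sample, 10 blocks with 450 members, and the remaining 20 with 891 members. The 10 blocks were all long, from 361 to 4487 kb, with a median of 1185 kb. Of the other 20, 14 were shorter than 20 kb and the median was 10.2 kb. Because the fractions chose both the members and this separation, the following values are a description.

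In the 10 long blocks the median fraction was 1 in replicates 1, 2 and 4 in every block. In replicate 3 it lay between 0.780 and 0.824. Over the 450 members the medians were 1, 1, 0.806 and 1, and 308 members were at exactly 1 in replicates 1, 2 and 4. Depth was even between samples, with medians of 62, 52.5, 65 and 61 reads, and the ratio of the depth in replicate 1 to that in replicate 3 lay between 0.810 and 1.12 in each block. The median mapping quality was 60 in every block and sample. The rule keeps only sites at 0.65 or more in replicate 3. In the Rbm28, Lrguk, Osbpl3 and Afg3l2 blocks each SNV that was confident in all samples but no member (4, 1, 2 and 4 SNVs) was under 0.65 in replicate 3 only.

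On chromosome 1 the Rab3gap2 block ran from 183918161 to 187233701 with 77 members among 83 SNVs confident in all samples. Its replicate 3 median was 0.813. Rab3gap2, the regulatory subunit of a complex that acts on RAB3 proteins in vesicle release, held 27 members of 27 such SNVs, with median fractions of 1, 1, 0.810 and 1 in replicates 1 to 4. Spata17, a gene named for its link to spermatogenesis, held 6 with fractions of 1, 1, 0.740 and 1. Bpnt1, a nucleotidase that removes a phosphate from adenosine bisphosphate, held 5 with 1, 1, 0.786 and 1. In these genes replicate 3 alone was low.

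Chromosome 6 held 3 blocks with 180 members on both sides of Ezh2. The Rbm28 block, from 28424384 to 30140370, had 58 members of 62 SNVs and a replicate 3 median of 0.824. Rbm28, an RNA-binding protein of the nucleolus, held 17 members with fractions of 1, 1, 0.824 and 1. Prrt4, a proline-rich transmembrane protein gene, held 9 with a replicate 3 fraction of 0.879. Nrf1, a transcription factor for mitochondrial genes, held 8 with 0.837 in replicate 3. The Lrguk block, from 32610282 to 37097582, was the longest and had 72 members of 73 SNVs. Lrguk, a gene needed in sperm formation, held 11 with a replicate 3 fraction of 0.804. Slc13a4, a sulphate transporter, held 8 at only 13.5 to 16 reads with 0.80 in replicate 3. Cald1, which encodes the actin-binding protein caldesmon, held 7 with 0.793 in replicate 3. In the Osbpl3 block, from 49827510 to 50967461, 50 of 52 SNVs were members. Osbpl3, an oxysterol-binding protein gene, held 14 with fractions of 1, 1, 0.798 and 1. Gsdme, a gasdermin that forms pores in dying cells, held 12 with 1, 1, 0.781 and 1. Mpp6, a scaffold protein of the membrane, held 2 with 0.751 in replicate 3. In replicates 1, 2 and 4 each of these genes had a median of 1.

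The targeted genes themselves held no member. No SNV in Ezh2 (chromosome 6, 47530274 to 47595270) was confident in all samples, and the nearest members were 2.47 Mb below it and 2.23 Mb above it. Nras (chromosome 3, 103058285 to 103067914) held 1 SNV confident in all samples, which was not a member. The nearest member below Nras was 7.24 Mb away, and there was none above it on the chromosome. A deletion is not seen in a list of SNVs, so the counts in Ezh2 do not check its loss. Whether the 1 SNV in Nras is the G12D change was not examined here.

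Further long blocks lay on chromosomes 7, 11 and 18. On chromosome 7, Lat, an adaptor of T-cell receptor signalling, and Xpo6, a nuclear exporter of actin, had 4 members each, with replicate 3 fractions of 0.859 and 0.815 and medians of 1 in the other samples. The Sec23ip block, from 128389117 to 129620096, and the Lrrc27 block, from 138894630 to 139255220, each held 23 members, among 44 and 132 SNVs. In the Lrrc27 block the 109 non-members had median fractions of 0.471, 0.500, 0.386 and 1, so replicate 4 alone was at 1 at these sites. In the Sec23ip block the 21 non-members showed the same order with 0.500, 0.484, 0.364 and 1. The Fat2 block of chromosome 11, from 54140119 to 56040686, held 39 members of 385 SNVs, and its 346 non-members had medians of 0.462, 0.470, 0.80 and 1. Fat2, a giant cadherin, and Sparc, a matrix glycoprotein, held 9 members each, with replicate 3 fractions of 0.808 and 0.748. The Afg3l2 block of chromosome 18, from 66859078 to 67908142, held 29 of 33 SNVs and had a replicate 3 median of 0.810. Afg3l2, a protease subunit of the mitochondrial inner membrane, held 10 of them.

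**Figure D3:**
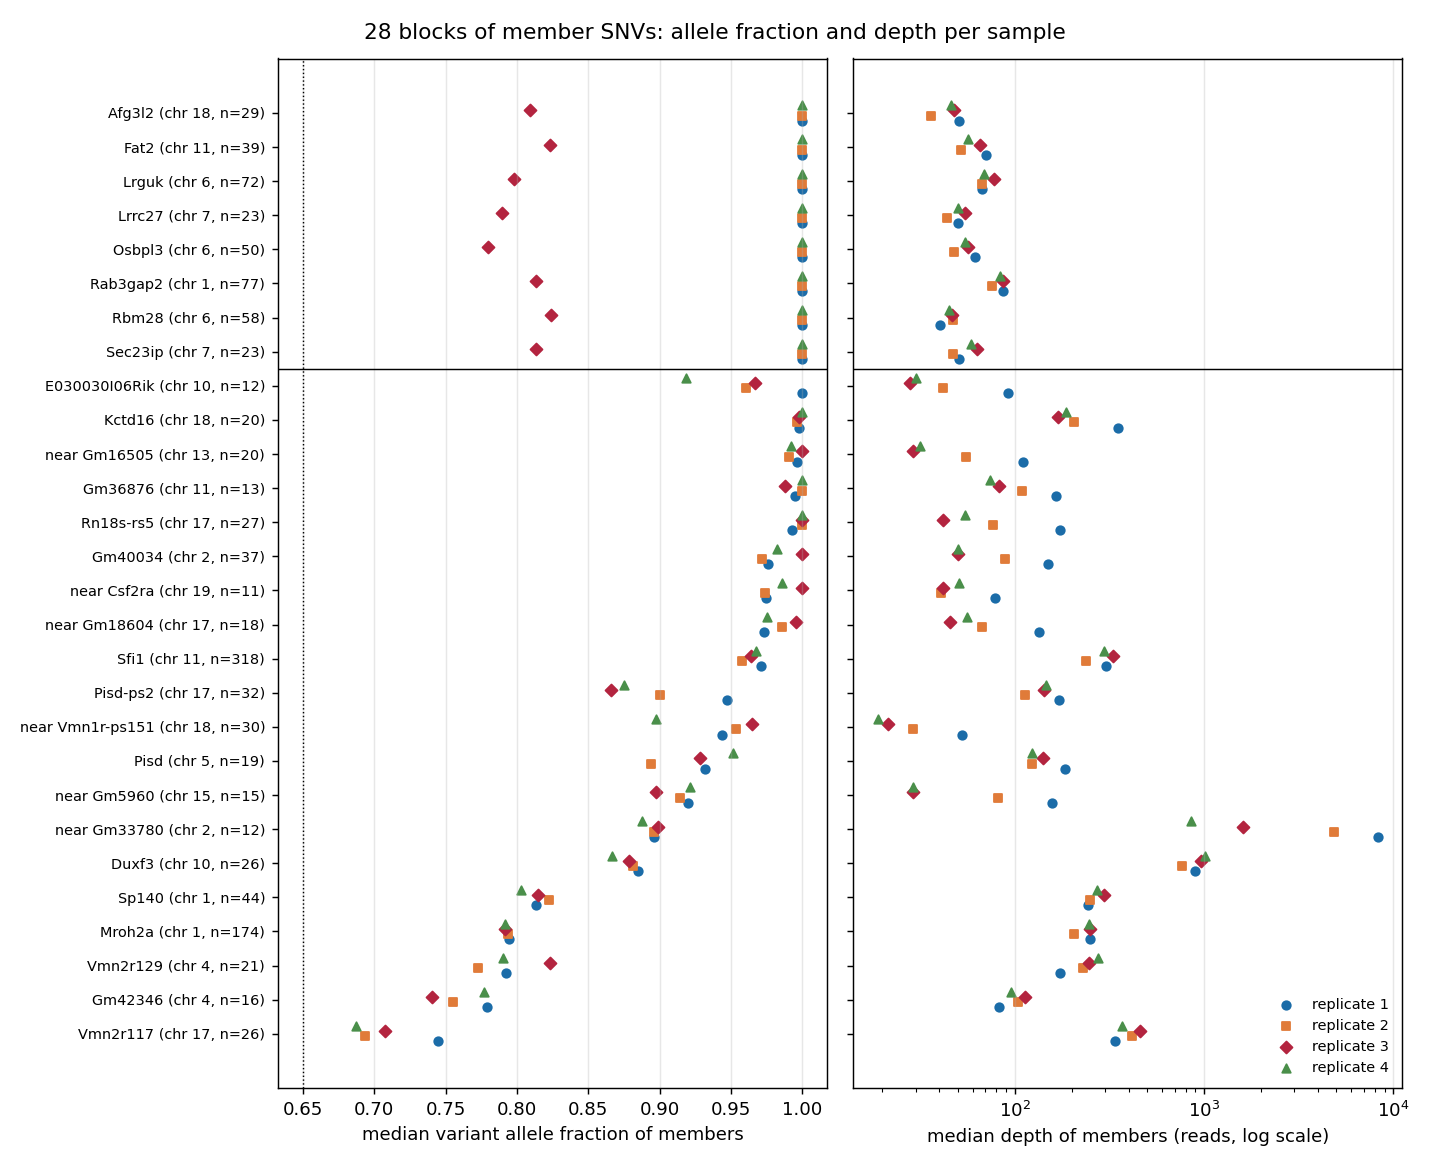
Median allele fraction (left, x axis from 0.65 to 1, dotted line at the 0.65 minimum) and median depth in reads (right, logarithmic x axis) of the members of 28 blocks, with 1 symbol per replicate. Above the horizontal line are 8 of the long blocks, where replicate 3 lies between 0.780 and 0.824 and the others at 1. Below it are 20 blocks in which the 4 samples lie closer together in fraction while their depths differ in many.

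In the other 20 blocks the samples had close fractions. The medians over the 891 members were 0.948, 0.919, 0.925 and 0.938, and the block medians of the 4 samples differed from each other by 0.00294 to 0.0818. Pooled over these members, depth was higher than in the long blocks, with medians of 188, 140, 159 and 154 reads, and mapping quality was lower. Single blocks went both ways in depth. Their medians ran from 21.5 to 1606.5 reads in replicate 3, against 46.5 to 87 in the long blocks. The median mapping quality was 60 in every sample in 2 of these blocks, Mroh2a and Rn18s-rs5, and under 55 in every sample in 13, with block medians down to 19.9. Pooled depth and mapping quality thus differed from those of the long blocks, and their part in the fractions was not tested.

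The Sfi1 block of chromosome 11, from 3123766 to 6593749, was the largest with 318 members among 1026 SNVs. It joined a dense stretch and a sparse one. The dense stretch, from 3123766 to 3197103, held 292 members in 73.3 kb with median fractions of 0.969, 0.961, 0.966 and 0.964 at depths of 429, 311, 434.5 and 404 reads. Sfi1, a centrin-binding protein of centrioles, held 228 members of 255 SNVs (chromosome 11, 3131850 to 3203347), more than any other protein-coding gene, with fractions of 0.971, 0.964, 0.971 and 0.969. The overlapping pseudogenes Pisd-ps1 and Gm11400 held 52 and 26. The other 26 members of the block were spread from 3353331 to 6593749, in genes including Ap1b1, a subunit of the AP-1 adaptor of vesicle coats, and Ascc2, a transcription coactivator subunit, with 2 each. Ap1b1 had fractions of 1, 0.667, 0.799 and 1, and Ascc2 had 1, 0.679, 0.801 and 1. In this sparse stretch replicate 2 was lowest and replicate 3 next, and 652 of the 708 non-members of the block were under 0.65 in replicate 2 only. The sparse stretch is thus where sites just above the minimum in replicate 2 entered the set.

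The Mroh2a block of chromosome 1, from 88211898 to 88294597, held 174 members of 357 SNVs in 82.7 kb. Its median fractions were 0.794, 0.794, 0.791 and 0.792, and its mapping quality was 60 in every sample. Depth was 251, 206, 251 and 247 reads, against 75, 66, 80 and 71 over all non-members. A further 137 SNVs in the block were under 0.65 in all samples and had medians of 0.326, 0.326, 0.330 and 0.319. Neither set of medians was near 1 or near 0.5, and all 4 samples were alike in both. The 0.65 limit itself parts these sets, so their medians do not show separate classes of fractions. The rest of the 183 non-members of the block lay at or above 0.65 in some samples only. Mroh2a, a HEAT-repeat protein gene (chromosome 1, 88226991 to 88262289), held 122 members of 238 SNVs, and Hjurp, the chaperone of the centromeric histone CENP-A, held 26 of 59. The Ugt1a genes, glucuronosyltransferases that share their last exons, overlap each other: 23 members lay in Ugt1a10, Ugt1a2, Ugt1a5, Ugt1a6a and Ugt1a6b at once, with fractions of 0.817, 0.811, 0.808 and 0.811.

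Gene families with near-identical copies made up several blocks. The Sp140 block of chromosome 1, from 84990446 to 85626309, held 44 members of 213 SNVs with fractions of 0.814, 0.822, 0.815 and 0.803 and mapping qualities of 35.7 to 38.2. Sp140 and Sp110, nuclear body proteins of immune cells, held 13 and 8. The Duxf3 block of chromosome 10, an array of double homeobox genes from 58223249 to 58239643, held 26 members at depths of 897, 762, 966 and 1014.5 reads and a mapping quality near 25, with fractions of 0.885, 0.882, 0.879 and 0.866. Vomeronasal receptor blocks lay on chromosome 17 around Vmn2r117, with 26 members of 170 SNVs and fractions of 0.745, 0.693, 0.708 and 0.688, and on chromosome 4 around Vmn2r129, with 21 of 148. The Gm42346 block of chromosome 4, from 145446618 to 147807132, held 16 of 301 SNVs, and 1 member each in the zinc finger genes Zfp978, Zfp982, Zfp984 and Zfp993. Reads of such copies can be placed on each other, so the gene a member belongs to is uncertain in these blocks.

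Sequences related to Pisd, the enzyme that makes phosphatidylethanolamine in mitochondria, appeared in 3 blocks. The Pisd block of chromosome 5, from 32726316 to 32739404, had 19 members of 21 SNVs, of which 4 lay in Pisd and 15 in the pseudogene Gm2420. Its fractions were 0.932, 0.894, 0.928 and 0.952, with mapping qualities of 40.3 to 42.2. The block around the pseudogene Pisd-ps2 on chromosome 17, from 3077180 to 3084488, had 32 of 47 with fractions of 0.947, 0.90, 0.866 and 0.875. The third holds Pisd-ps1, in the dense stretch of the Sfi1 block.

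In 11 of the 20 blocks the depth in replicate 1 was more than 1.5 times that in replicate 3, from 1.88 to 5.41 times, a limit set after the values were seen. These blocks held 215 members, and only 2 of them, E030030I06Rik and Kctd16, had members in a protein-coding gene. The other 9 blocks had ratios of 0.707 to 1.30, and 8 of them had members in protein-coding genes. The block near Gm33780 on chromosome 2, from 98662303 to 98667077, had the greatest depth, 8259, 4838, 1606.5 and 852 reads in replicates 1 to 4, with fractions of 0.896, 0.896, 0.899 and 0.888 and mapping qualities of 19.9 to 23.5. Depth there differed widely between samples, whereas the fractions did not. The block over Rn18s-rs5, a ribosomal RNA sequence on chromosome 17 (39843289 to 39848455), had depths of 174, 77, 42 and 55 reads, fractions of 0.993, 1, 1 and 1 and a mapping quality of 60. Kctd16, a subunit of GABA-B receptors, held 20 members within 292 bases (chromosome 18, 40308092 to 40308383), with fractions of 0.998, 0.996, 0.998 and 1 at 352, 207, 170 and 188 reads. Several of these runs therefore stood at a fraction near 1 in replicate 3 as well.

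Further blocks, most of them without a member in a protein-coding gene, completed the list. On chromosome 2 the Gm40034 block, from 181917449 to 181931344, had 37 members of 50 SNVs with fractions of 0.976, 0.971, 1 and 0.982 at 150, 89, 50 and 50 reads. The Gm36876 block of chromosome 11 had 13 members within 0.293 kb, with fractions of 0.995, 1, 0.988 and 1. The block near Gm16505 on chromosome 13, from 3373007 to 3373638, had 20 of 20 SNVs as members, and that near Gm18604 on chromosome 17, from 36231278 to 36231535, had 18 of 18. Their replicate 3 fractions were 1 and 0.996. The block near Gm5960 on chromosome 15, from 75085617 to 75086990, had 15 of 38, with fractions of 0.920, 0.915, 0.897 and 0.922 and the widest depth ratio, 157 reads in replicate 1 and 29 in replicate 3. E030030I06Rik on chromosome 10 held 12 members between 22142343 and 22142743 with fractions of 1, 0.961, 0.967 and 0.918. The block near Vmn1r-ps151 on chromosome 18, from 3005001 to 3010385, had 30 of 49 at only 19 to 52.5 reads, and the block whose span covers Csf2ra on chromosome 19, a cytokine receptor subunit gene that itself held no member, had 11 of 11.

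**Figure D4:**
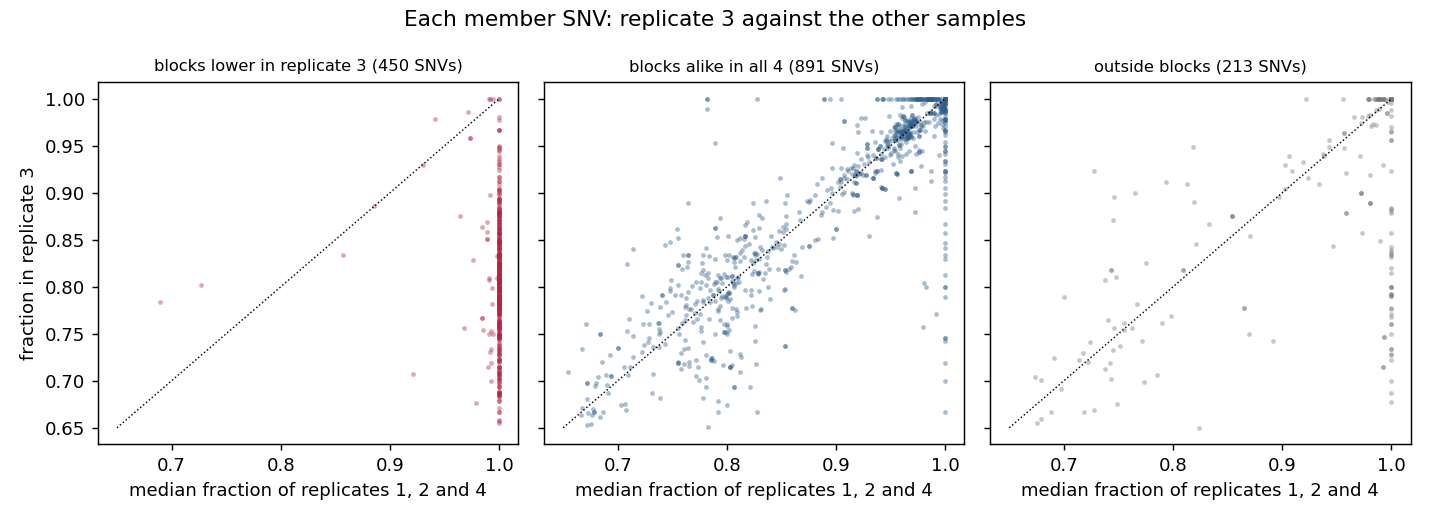
Each member as a point, with the median allele fraction of replicates 1, 2 and 4 on the x axis and the fraction in replicate 3 on the y axis, for the 450 members of the 10 long blocks, the 891 of the other blocks and the 213 outside blocks. The dotted line marks equal fractions. The first panel is a column at 1 on the x axis, whereas the second follows the line, apart from a column at 1.

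The low values of replicate 3 were not spread over all members. Among 856 members at 0.95 or more in replicates 1, 2 and 4, 371 were at 0.95 or more in replicate 3 too, and 279 of these lay in the 20 blocks where samples were alike. The other 485 had a median of 0.804 in replicate 3, and 422 of them lay in the 10 long blocks. Depth in replicate 3 was similar in both, with medians of 71 and 64 reads. Mapping quality was 58.1 where replicate 3 was high and 60 where it was low.

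By gene, 190 of 20665 autosomal protein-coding genes held a member within their bodies (0.919%), and 916 held any SNV confident in all samples (4.43%). Exons were not used here, so a member in a gene body may be intronic, and no effect on a protein is given. Of the 190 genes, 75 held 1 member and 25 held 10 or more. Overlapping genes, such as the Ugt1a genes, count the same members more than once in these numbers. Sfi1 and Mroh2a together held 350 members (22.5%). In all, 1018 members (65.5%) lay in a protein-coding gene, compared with 79.9% of the 7918 other SNVs confident in all samples, and 337 (21.7%) lay in no annotated gene, compared with 8.44%. These shares differ beyond their counting intervals (63.1 to 67.9% and 79.0 to 80.7% in protein-coding genes), but linked sites make those intervals too narrow. SNVs under 0.65 in all samples were close to the members, with 66.5% in protein-coding genes (64.6 to 68.3%). Those at 0.65 or more in some samples only had 86%. In no annotated gene lay 15.9% of the former and 5% of the latter.

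Outside blocks, 11 protein-coding genes held 3 or more members, and they showed the same kinds of values. Muc4, a membrane mucin, held 9 members of 48 SNVs at 0.938, 0.929, 0.939 and 0.948 with a mapping quality of 51.6 to 53.7. Vmn2r29, a vomeronasal receptor, held 8 at 0.713, 0.777, 0.818 and 0.803 with a mapping quality of 24.2 to 30.2. Cdk8, the kinase of the Mediator complex, held 6 between 146261076 and 146261271 at 1, 1, 0.991 and 0.962. Eef2, the translation elongation factor, held 4 at 0.954, 0.945, 0.945 and 0.943 and depths of 595 to 975.5 reads. The other kind was low in replicate 3 alone at a mapping quality of 60. Ctbp2, a transcriptional corepressor, held 4 members of 4 SNVs confident in all samples, and Dock1, an activator of RAC, held 4 of 74. The replicate 3 fractions of these members were 0.816 and 0.752. Zranb1, a deubiquitinase, Ldb2, a cofactor of LIM proteins, and Ppargc1a, a coactivator of mitochondrial genes, held 3 each with 0.80, 0.792 and 0.771. Dmbt1, a secreted scavenger receptor protein, held 3 members of 106 SNVs at 0.724, 0.728, 0.669 and 1, and the predicted gene Gm7827 held 3 at 0.724, 0.735, 0.755 and 0.783.

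The background for any gene list is the 0.919% of autosomal protein-coding genes that held a member. Among genes of the RAS pathway, Mapk3, which encodes the kinase ERK1, lies in a long block of chromosome 7 and held 3 members. Its change C126763733T was on 99 of 99, 79 of 79, 82 of 118 and 112 of 112 reads. Among 19 Polycomb and chromatin regulators, 1 held a member (5.26%). Jarid2, a cofactor of Polycomb repressive complex 2, held the change A44869614G (chromosome 13) on 111 of 116, 60 of 61, 37 of 38 and 39 of 39 reads, with mapping qualities of 37.2 to 43.1. No member lay in 16 myeloid leukaemia drivers, 6 splicing factors, 5 cohesin and CTCF genes, 16 DNA repair genes, 10 genes of branched-chain amino acid metabolism, 12 homeobox A genes or 8 genes known to differ between C57BL/6 substrains, although 8 of these genes held an SNV confident in all samples. Among gene families, 5 of 354 vomeronasal receptors (1.41%) held 27 members, 4 of 455 zinc finger genes (0.879%) held 4, and 1 of 1104 olfactory receptors (0.0906%) held 1. The zinc finger share was close to the background of 0.919%, and the olfactory share was below it. Families of 38 major histocompatibility genes, 38 taste receptors, 62 natural killer lectin receptors, 62 serpins, 99 cytochrome P450 genes, 112 keratin genes and 68 tripartite motif genes held none, although 19 of the cytochrome P450 genes held an SNV confident in all samples.

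Base changes, strands and indels were not part of the rule, which set only a minimum of 10 reads on depth. Transitions, changes within the purines or within the pyrimidines, were 66.3% of the members (interval 63.9 to 68.6%) and 68.3% of the other SNVs confident in all samples (67.3 to 69.3%), so their intervals overlapped. The share was 74.7% in the 10 long blocks (70.4 to 78.6%), 64.5% in the other 20 blocks (61.3 to 67.7%) and 55.9% outside blocks (48.9 to 62.6%). Among the other SNVs, those under 0.65 in all samples had 59.7% (57.7 to 61.6%). Those at 0.65 or more in some samples only had 72.3% (71.1 to 73.5%). Neither interval overlapped that of the members, so the overlap above holds for the pooled other SNVs only. Variant reads came from both strands in all 4 samples at 93.1% of the members and 87.4% of the others. The rule keeps sites with more variant reads at a given depth, so these strand shares are not independent of it.

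In each sample the median depth of the members lay above that of the other SNVs confident in all samples. It was 109, 82, 85 and 81 reads in replicates 1 to 4, against 75, 66, 80 and 71, a mean difference of 16.3 reads ± 12.7 (SD, n = 4). It was higher in 4 of 4 samples, and a two-sided exact sign-flip permutation test gave p = 0.13, the smallest value that 4 samples allow. When replicate 2 was left out and the set chosen again, the mean difference was -4 reads, so the direction depended on that sample. The other SNVs were also unlike each other in depth. Those under 0.65 in all samples were deeper than the members, with medians of 146.5, 138, 153 and 147 reads. Those at 0.65 or more in some samples only had 62, 53, 64 and 57. Median mapping quality differed by a mean of only -0.0255 ± 0.0294 (SD, n = 4, exact permutation p = 0.13), since both medians stood at or close to 60. A mapping quality under 50 in all samples was found at 28.8% of the members, 22.9% of the other SNVs and 52.3% of those under 0.65 in all samples.

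Insertions and deletions gave a view of the blocks that the rule had not used. The share of confident indels at a fraction of 0.65 or more was 62.7% of 542 inside the blocks and 16.6% of 2961 outside in replicate 1, and 38.5% of 525 and 19.7% of 3192 in replicate 2. It was 58.6% of 488 and 18.3% of 3010 in replicate 3, and 66.9% of 447 and 41.3% of 2384 in replicate 4. The share was higher inside in 4 of 4 samples, by a mean of 32.7 percentage points ± 12.7 (SD, n = 4), and the exact sign-flip permutation test gave the smallest p it allows, 0.13. Without replicate 3 the mean was 43.9 points. Because the block borders came from the SNVs of the same samples, the difference describes linked sites of these 4 samples. The Sfi1 block, where 708 of 1026 SNVs were not members, alone held 205, 190, 169 and 153 of the inside indels. In the 10 long blocks the share was 55.5%, 39.6%, 59.8% and 73% in replicates 1 to 4. Replicate 2 was thus lowest there, unlike the members, which were lowest in replicate 3. In the other 20 blocks it was 66.1%, 37.9%, 57.9% and 63.5%. Of 804 indels confident in all samples, 194 (24.1%) were at 0.65 or more in all, 38.9% of the 265 inside blocks and 16.9% of the 539 outside.

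The 0.65 minimum cut through a continuous range. Just inside were C3531542T, T3973185A and C4075493A on chromosome 11, each at 0.65 in replicate 2. Just outside were G35927181A on chromosome 6 at 0.647 in replicate 3 and T88224927A and T88272675C on chromosome 1 at 0.649 in replicates 3 and 4. In all, 157 members had a lowest fraction between 0.65 and 0.70, and 203 non-members had one between 0.60 and 0.65. At the other end, 371 members were at 0.95 or more in all samples and 55 at exactly 1 in all. Among SNVs confident in all samples, 106 were kept out by replicate 1 only, 774 by replicate 2 only, 715 by replicate 3 only and 28 by replicate 4 only. At 818 positions at 0.65 or more in the other 3 samples, replicate 3 had no confident call, and at 678 of these neither caller listed the SNV there. The corresponding numbers without a confident call were 89, 97 and 167 in replicates 1, 2 and 4.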

How the data were processed

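Exomes were captured with an Agilent SureSelect mouse kit and sequenced in pairs on a BGISEQ500, per the labels' protocols. The authors deposited SpeedSeq variant files made by freeBayes 0.9.21 against mm10, per the file headers, with read counts and a Phred-scaled quality score, and VarScan2 SNV and indel tables with read counts and a variant frequency in percent, per the file headers. No source used here gives the aligner, duplicate handling or VarScan2 version. Equal-length SpeedSeq records of several bases were split into single bases. Confident autosomal SNVs numbered 33801, 31833, 30662 and 21284 in replicates 1 to 4, and member depth ran from 10 to 18268 reads. Genes are RefSeq gene bodies of GRCm38.p6, without exons. Shares have exact Clopper-Pearson 95% intervals, which cover counting error only. Differences across samples were tested by exact permutation of signs (16 patterns). The code for members and blocks was checked on simulated data first, and the permutation test on a fixed example. Named genes are Nras and Ezh2, the 10 protein-coding genes with most members, the top 3 of each block with at least 50 members, list genes with a member, and genes outside blocks with 3 or more; other genes and all block examples were named after their values were seen. Some items are not reported here. The members and lists were chosen with earlier results of these data known. Alternatives changed the fraction, depth, quality, mapping, caller, neighbour and block limits and left out each replicate. Python 3.11.15, numpy 2.4.6, scipy 1.17.1 and matplotlib 3.10.9 were used.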

Additional observations from a re-analysis of the deposited data

Results flagged for a closer look

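Of 67 sets of 4 sample values examined, 15 had a sample far from the others. Many of the sets are linked to each other, and medians stop at 1. Many also hold member fractions, which the rule used, and the long blocks were set apart by their low fraction in replicate 3. The count is therefore a description and cannot be set against a rate expected by chance. Replicate 3 was the distant sample in most of the 15. Its median member fraction was 0.860, its share of members at exactly 1 was 14.1%, its share of SpeedSeq homozygous genotypes was 43.2% and its median fraction outside blocks was 0.909. Its block medians were 0.813 for Rab3gap2, 0.824 for Rbm28, 0.798 for Lrguk, 0.780 for Osbpl3, 0.813 for Sec23ip, 0.789 for Lrrc27, 0.824 for Fat2 and 0.810 for Afg3l2, with the other samples at 1 in each. Replicate 1 stood apart by a median member depth of 109 reads and by a fraction of 0.993 in the Rn18s-rs5 block, where the others were at 1. Replicate 2 had the lowest depth, 206 reads, in the Mroh2a block. On the X chromosome, which the rule leaves out, 7 of 128 SNVs confident in all samples (5.47%) were at 0.65 or more in all 4.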

How the results depend on the processing

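The number of members was 934 at a fraction minimum of 0.80, 577 at 0.90 and 299 without SNVs that had another confident SNV within 100 bases. The number of blocks was 10 at 0.90, 18 at a mapping quality of at least 50 and 8 without close neighbours. Genes with a member numbered 125 at 0.80 and 52 at 0.90. The share of members in blocks was 82.5% at 0.80, 70.2% at 0.90, 84.5% with SpeedSeq alone, 88.1% at a mapping quality of at least 50, 64.9% without close neighbours, 83.1% with the shorter block gap, and 92.1% and 78.8% with block minimums of 5 and 20. Members as a share of the all-sample SNVs were 9.86% at 0.80, 6.09% at 0.90, 17.5% at a quality of at least 100, 17.7% with SpeedSeq alone, 17.6% with VarScan2 fractions, 15.3% at a mapping quality of at least 50 and 12.4% without close neighbours. The transition share was 62.0% at 0.90, 63.7% with VarScan2 alone, and 70.9% both at a mapping quality of at least 50 and without close neighbours. The causes were not tested.

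With each replicate left out in turn, members numbered 1749 to 3087, blocks 31 to 39 and genes 208 to 412. The share in blocks was 84.8 to 90.4%, the share of all-sample SNVs 12.1 to 24.6% and the transition share 65.9 to 68.5%. The highest counts came without replicate 3, and members numbered 2425 without replicate 2. The indel difference was 28.9 to 43.9 points, positive under every alternative run. The depth difference was -4 to 17 reads, and the mapping quality difference -0.00857 to 0. No paired analysis was possible because the samples form a single group, with no second group to pair them with; the sign-flip tests compare classes of sites within each sample. Depth limits the fractions of some members, since 70 to 117 members per sample had fewer than 20 reads.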
